A study of Homo sapiens with 12 samples.

Results

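Cells labelled as given doxycycline (Dox) for 6 days in a serum medium were compared with undifferentiated stem cells labelled as given Dox. The comparison was defined by the sample titles and held 6 of the 12 arrays of the series, 3 in each group. All arrays read RNA of H9 (passages 28 to 35), an established cell line from a human blastocyst. Every group, the untreated controls of the series included, carried a Tet-on construct for GCNF, the orphan nuclear receptor encoded by NR6A1. The d0 group with Dox was undifferentiated, kept in mTeSR medium on plates coated with a basement membrane extract, and is labelled with 1 µg/ml Dox for 4 days. The day 6 group was grown in DMEM/F12 with 15% FBS, NAA and glutamine, and is labelled as having received 1 µg/ml Dox for 6 days. Medium, stage and labelled length of Dox exposure therefore changed together and cannot be told apart, and no day 6 group without an agent was analysed here. The most like comparison, which shared no array with this one, set 3 day 6 arrays labelled with 1 µM retinoic acid (RA) against 3 untreated d0 arrays, and it is used below to show where the Dox-labelled pair differed. Replicates are labelled as biological, with no word on separate cultures, so a p-value here reflects spread from array to array, which may be technical. The labels do not say whether the line is 1 clone.

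Human embryonic stem cells keep their state through transcription factors such as NANOG, SOX2 and OCT4 (POU5F1), supported by Activin or Nodal and FGF signals from the medium. When these are replaced by serum, the factors are switched off and genes of the germ layers are switched on. GCNF is known as a repressor that binds direct repeats of a nuclear receptor site with no bases between them and takes part in silencing POU5F1. Retinoic acid works through receptors (RARA, RARB, RARG) that bind such repeats with wider spacing, and its classic responses are CYP26 enzymes that destroy it, RARB itself and the 3′ genes of the HOX clusters.

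Before any result, the values of NR6A1 have to be set beside the labels, since the construct was meant to switch it on in both groups compared here. Of the 7 NR6A1 probe sets, 207742_s_at read 606, 660.1 and 580.1 on the d0 arrays with Dox and 31.6, 14.5 and 41.6 on the Dox-labelled day 6 arrays. It read 46.9, 19.5 and 13.99 on the untreated d0 arrays and 355, 395 and 258 on the RA-labelled day 6 arrays. The Dox-labelled day 6 arrays thus lay within the range of untreated cells, and the RA-labelled arrays lay between them and the Dox-treated stem cells. The probe sets 210392_x_at and 211402_x_at gave the same order of groups, with means of 665 at d0 with Dox, 566 on RA-labelled and 176 on Dox-labelled arrays for 211402_x_at. The other probe sets did not share this order. On the one that represents the gene, 228894_at, the means were 1457 at d0, 2869 at d0 with Dox, 1009 on Dox-labelled and 528 on RA-labelled arrays. On 227494_at and 227496_at the Dox-labelled means of 408 and 365 also lay above the RA-labelled means of 201 and 207, with both day 6 groups below untreated d0 (705 and 579). The seventh, 210391_at, was dim in both day 6 groups, at 7.94 with the Dox label and 13.2 with the RA label. All 7 probe sets were lower on Dox-labelled day 6 arrays than at d0 with Dox, with log2 fold changes from -1.37 for 210392_x_at to -3.85 for 207742_s_at (limma over all probe sets, adjusted p = 3.34e-05 and adjusted p = 4.17e-06). CYP26A1, an enzyme that degrades retinoic acid and is a classic target of it, read 30701, 29345 and 28736 on the Dox-labelled arrays and 312, 259.9 and 241 on the RA-labelled arrays. On CYP26A1 and on 3 of the 7 NR6A1 probe sets the day 6 libraries go against their labels. On 3 others the Dox-labelled arrays read higher than the RA-labelled ones, but both day 6 groups lay below untreated d0. Of 25 retinoic acid responsive genes described below, the change in the Dox-labelled pair was above that in the RA-labelled pair for 16 and below it for 2 (limma, adjusted p under 0.05). The same caveat covers GALNT16, SLITRK5 and LIX1, described near the end. Every direction below rests on the labels as deposited, and the groups are called Dox-labelled and RA-labelled throughout. Whether the day 6 labels are exchanged was not tested, and leaving the 3 arrays out would leave no comparison.

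**Figure D1:**
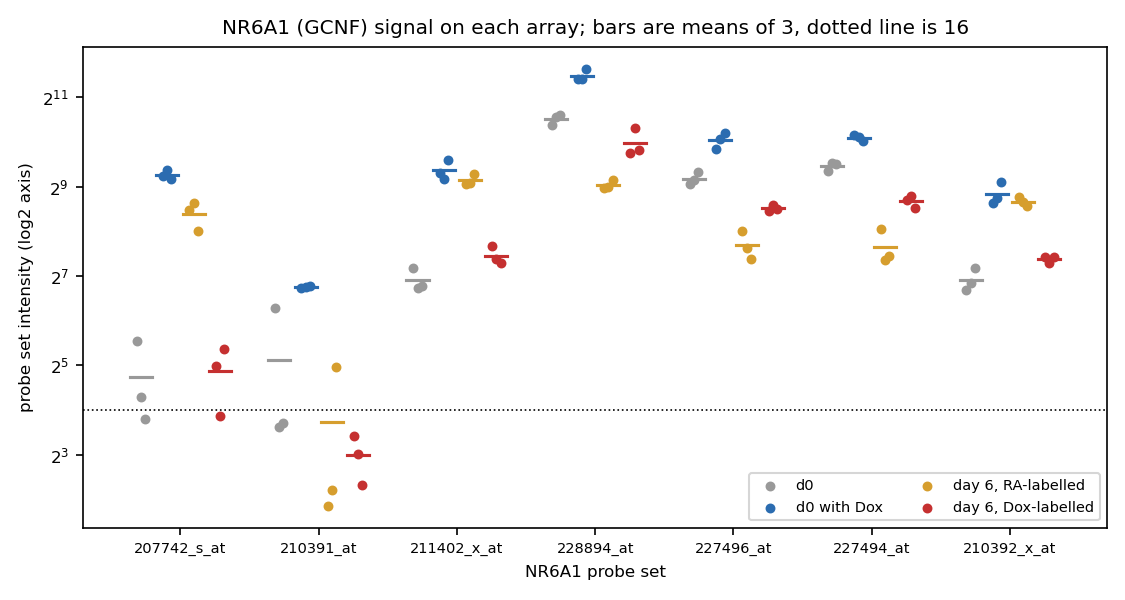
Intensity of the 7 NR6A1 probe sets (log2 axis) on each of 12 arrays, coloured by group, with bars for the means of 3 arrays and a dotted line at 16, the constant added before logarithms. On 207742_s_at, 211402_x_at and 210392_x_at the Dox-labelled day 6 arrays lie below the RA-labelled arrays, and on 227494_at, 227496_at and 228894_at they lie above them.

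Values are probe set intensities on a linear scale, with the same trimmed mean on every array, so they show how bright a probe set was within its array. Differences are log2 fold changes of intensity + 16, given ± SE, and folds are their antilogs, so that changes of dim genes are understated. Genes with a limma p-value under 0.05 after Benjamini-Hochberg adjustment over all 19775 genes are said to have risen or fallen, or to be called. Median intensities ran from 64.2 to 78.0 over the 12 arrays. Replicates correlated at r = 0.986 to 0.988 across probe sets on the log2 scale, and arrays of the compared groups at 0.934 to 0.938. For ACTB, the ratio of its 3′ over its 5′ probe set, a measure of RNA integrity and labelling, was 3.86 ± 0.0111 (SD, n = 3) at d0 with Dox and 2.33 ± 0.0580 on Dox-labelled arrays, and that of GAPDH was 1.62 ± 0.0554 and 1.46 ± 0.0230. The groups did not overlap in either ratio, and the part of this in the results below was not tested. In bulk RNA, fewer cells of a type and less RNA per cell cannot be told apart.

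The probe set with the deepest fall was annotated to MIR302B. It belongs to a cluster of microRNAs that is abundant in pluripotent cells and promotes their division. Of the mature sequences that RefSeq gives for it, the 5 from the 3′ arms are shown and the 5′ arms are left out, because 4 of the 3′ arms share bases 2 to 8, the seed that selects targets, which are in capitals. All lie on the minus strand of chromosome 4 of GRCh38.p14, miR-302b-3p at chr4:112648489-112648511.
hsa-miR-302a-3p: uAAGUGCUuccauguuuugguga
hsa-miR-302b-3p: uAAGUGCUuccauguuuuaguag
hsa-miR-302c-3p: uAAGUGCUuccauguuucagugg
hsa-miR-302d-3p: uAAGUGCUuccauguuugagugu
hsa-miR-367-3p: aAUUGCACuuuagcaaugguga
The probe set read 33902, 31859 and 34503 on the d0 arrays with Dox and 281, 275 and 269.9 on the Dox-labelled arrays. That was a fall of 115-fold (log2 fold change -6.84 ± 0.097, adjusted p = 9.48e-11). On RA-labelled arrays it read 7499, 6301 and 6793, far above every Dox-labelled array, and the fall in the RA-labelled pair was -2.08 on the log2 scale. The difference between the pairs was -4.77 ± 0.14 (adjusted p = 3.49e-08). The array reads a longer precursor transcript here, and the mature microRNAs were not measured.

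Differences between the groups were widespread. Of 19775 genes, 9120 were called, which is 46.1%, with 4392 higher (22.2%) and 4728 lower (23.9%) on Dox-labelled day 6 arrays. A change of at least 2-fold was called for 1728 genes upward (8.74%) and 1702 downward (8.61%). The median log2 fold change of all genes was -0.030. The counts of gene lists below are to be read against these shares, and some genes stand in more than 1 list. The 3 arrays of one group did not overlap with the 3 of the other for 11012 genes (55.7%), so absence of overlap is common in these data.

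Pluripotency genes fell as a group. Of 31 measured, 27 fell and 2 rose, with a median of -2.11 against the -0.030 of all genes. NANOG, a core factor of the pluripotent state, read 5496, 5345 and 5562 on the d0 arrays with Dox and 39.9, 33.4 and 36.9 on the Dox-labelled arrays. The groups were far apart, and the fall was 104-fold (-6.70 ± 0.077, adjusted p = 3.65e-11). PRDM14, a repressor that guards the naive and pluripotent state, read 1855, 2107 and 2136 on the d0 arrays with Dox and 20.2, 7.41 and 14.7 on the Dox-labelled arrays, so that 2 of the 3 later arrays lay under 16 (-6.11 ± 0.17, adjusted p = 2.02e-09). LEFTY1, a Nodal antagonist and Nodal target, read 15224, 14617 and 15148 on the d0 arrays with Dox and 120.1, 156 and 175 on the Dox-labelled arrays (-6.51 ± 0.14, adjusted p = 5.91e-10). OTX2, a homeobox factor of primed stem cells and anterior neural tissue, read 4478, 4628 and 4308 on the d0 arrays with Dox and 70.2, 107 and 82.2 on the Dox-labelled arrays (-5.47 ± 0.12). SOX2 fell from 21619 ± 845 (SD, n = 3) to 1610.2 ± 171, a log2 fold change of -3.74 ± 0.099. The DNA methyltransferase DNMT3B fell by 3.69, the RNA-binding protein L1TD1 by 3.13, and ZFP42 by 2.48. LIN28A, which blocks maturation of the let-7 microRNAs, fell less, from 22549 ± 771 to 9447 ± 346 (-1.25 ± 0.083). The OCT4 gene POU5F1 had no probe set of its own here. A set shared by POU5F1 and its near-identical copies, 208286_x_at, read 7896, 7975 and 8005 at d0 with Dox and 335, 353 and 324 on Dox-labelled arrays (-4.50 ± 0.083, limma over all probe sets, adjusted p = 9.3e-10). The copies POU5F1B and POU5F1P4 fell by 5.32 and 5.20, and which copy their probe sets read is uncertain.

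The exceptions among pluripotency genes were NR5A2 and KLF4. NR5A2, a nuclear receptor that binds an extended site that it shares with GCNF, read 281, 230.4 and 269 on the d0 arrays with Dox and 1456, 1575 and 1506 on the Dox-labelled arrays, a rise of 5.55-fold (adjusted p = 2.19e-08). It went the other way in the RA-labelled pair, from 347 ± 28.1 at d0 to 23.7 ± 3.23, and the difference between the pairs was 5.66 ± 0.14 (adjusted p = 1.09e-08). KLF4, a zinc finger factor used in reprogramming, rose slightly, from 273 ± 28.8 to 377 ± 38.1 (0.44 ± 0.11, adjusted p = 0.00782), and that call was lost when the mean of its probe sets was used. The fall of the list was not the same in every member between the pairs. The difference was called higher for 10 and lower for 6 of the 31 genes, and NANOG (-2.55), PRDM14 (-2.72) and OTX2 (-2.74) were among those that fell further in the Dox-labelled pair.

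**Figure D2:**
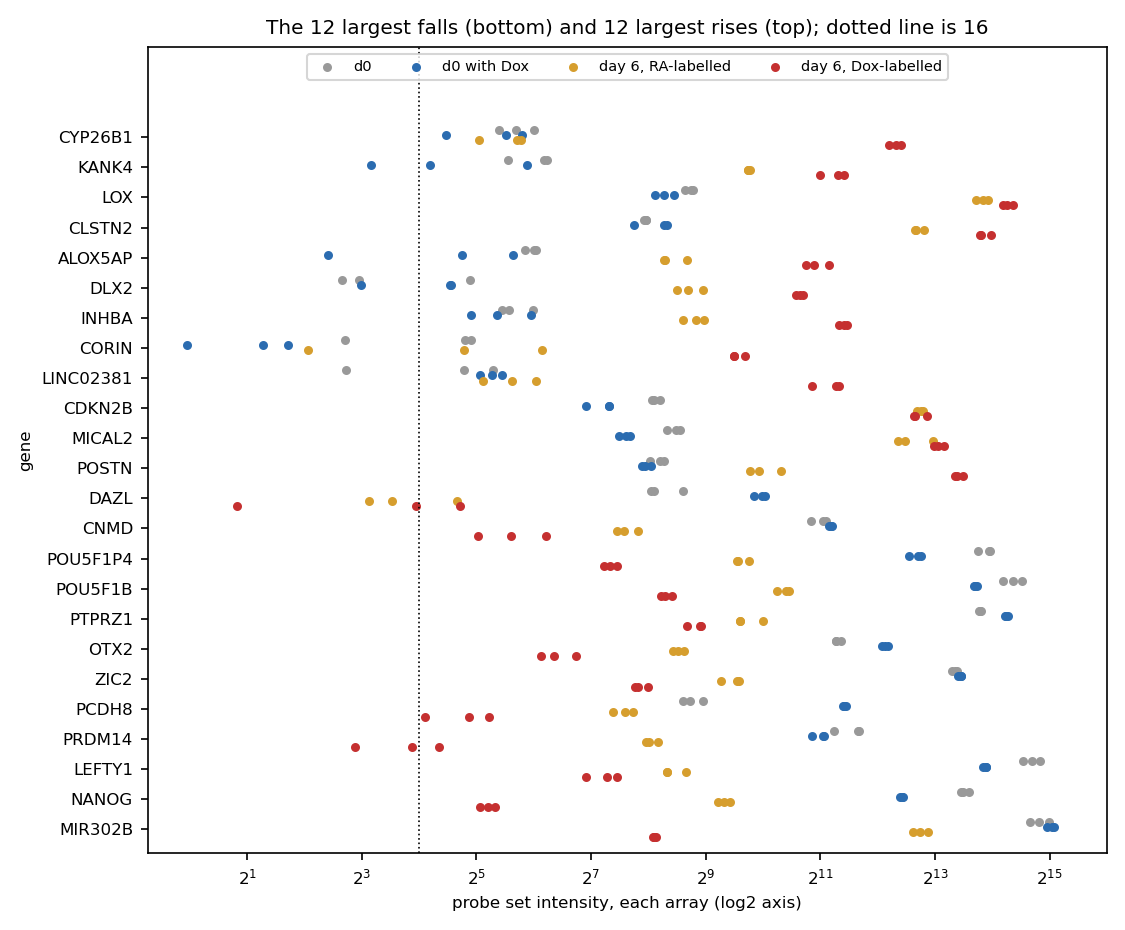
Intensity (log2 axis) on each array for the 12 genes with the largest falls and the 12 with the largest rises from d0 with Dox to Dox-labelled day 6, chosen among bright, non-overlapping, called genes, in 4 colours for 4 groups. The red points of the Dox-labelled arrays lie far from the blue points in every row, as the choice requires, and for CYP26B1, CORIN and LINC02381 the RA-labelled arrays stay near d0.

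Other large falls went beyond that list. PCDH8, a protocadherin of early mesoderm and neurons, read 2704, 2778 and 2728 on the d0 arrays with Dox and 17.3, 29.2 and 37.3 on the Dox-labelled arrays (-6.00 ± 0.16, adjusted p = 1.97e-09). ZIC2, a zinc finger factor of stem cells and forebrain, read 11203, 10769.7 and 11237 on the d0 arrays with Dox and 217, 225 and 255 on the Dox-labelled arrays (-5.48 ± 0.093). PTPRZ1, a receptor phosphatase of neural progenitors, fell by 5.36, CNMD, a cartilage glycoprotein, by 5.15, and DAZL, a germ cell RNA-binding protein, by 5.13. DAZL read 1007, 1048 and 922 on the d0 arrays with Dox and 1.76, 26.2 and 15.4 on the Dox-labelled arrays, so its later mean of 14.5 lay under 16. Its untreated d0 mean was 309, under the 992 at d0 with Dox. Among the largest rises was LOX, the enzyme that crosslinks collagen and elastin, which read 309, 350.8 and 277 on the d0 arrays with Dox and 18556, 19522 and 20965 on the Dox-labelled arrays (5.91 ± 0.097, adjusted p = 2.42e-10). KANK4, a cytoskeletal adaptor, rose by 5.92, CLSTN2, a calsyntenin of synapses, by 5.66, and ALOX5AP, the activator of leukotriene synthesis, by 5.65. CORIN, a protease that activates natriuretic peptides in the heart, read 3.28, 2.42 and 0.963 on the d0 arrays with Dox and 719, 718 and 821 on the Dox-labelled arrays. Its d0 arrays all lay under 16, so the size of 5.40 depends on the constant added. MICAL2, an oxidase that takes actin filaments apart, rose by 5.36, and the noncoding LINC02381 by 5.39.

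Genes of the Nodal and Activin pathway changed in both directions. Of 19 measured, 8 rose and 8 fell. INHBA, the subunit of Activin A, read 30.0, 62.1 and 40.8 on the d0 arrays with Dox and 2578, 2735 and 2831 on the Dox-labelled arrays, a rise of 46.3-fold (5.53 ± 0.18, adjusted p = 7.62e-09). The Activin-related ligand subunit INHBE rose by 1.98, the signal transducer SMAD3 by 2.60 and the inhibitor SMAD7 by 1.78. The Nodal antagonist CER1 fell by 4.05, from 794 ± 159 to 35.7 ± 24.9, and FOXH1, the partner through which Nodal signals reach DNA, by 4.37. FST, the follistatin that traps Activin, read 13698, 13704 and 13676 on the d0 arrays with Dox and 1015, 1072 and 1129.8 on the Dox-labelled arrays (-3.66 ± 0.065, adjusted p = 3.75e-10). FST changed by 0.15 in the RA-labelled pair (adjusted p = 0.0906), and the difference between the pairs was -3.80 ± 0.092 (adjusted p = 1.09e-08).

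Retinoic acid responsive genes were mainly higher on the Dox-labelled arrays. Of 25 measured, 16 rose and 2 fell, with a median of 1.29. CYP26B1, which breaks retinoic acid down, read 55.8, 22.04 and 45.8 on the d0 arrays with Dox and 5412, 5089.9 and 4722 on the Dox-labelled arrays, a rise of 92.0-fold (6.52 ± 0.23, adjusted p = 1.24e-08), the largest among the genes the naming rule took. CYP26A1, its partner enzyme, was already bright at d0 with Dox and read 6950.1, 6392 and 6637 on the d0 arrays with Dox and 30701, 29345 and 28736 on the Dox-labelled arrays (2.15 ± 0.094, adjusted p = 4.52e-08). MEIS1, a homeobox cofactor of HOX proteins, rose from 48.0 ± 5.04 to 1199 ± 187 (4.24 ± 0.26). CRABP2, which carries retinoic acid to its receptors, read 1004, 1084 and 1114 on the d0 arrays with Dox and 14695, 15521 and 14196 on the Dox-labelled arrays (3.77 ± 0.10, adjusted p = 1.97e-09). MEIS2 rose by 2.56. The 2 falls were both of enzymes that make retinoic acid, while ALDH1A1 and RDH10, of the same synthesis route, were not called lower. ALDH1A2 fell from 36.7 ± 3.11 to 3.36 ± 1.19, both near or under 16 at the end, and ALDH1A3 from 182 ± 3.94 to 68.7 ± 13.0, a call lost with the mean of its probe sets. RARRES2, which encodes the chemoattractant chemerin, rose by 1.18 here and fell by 5.20 in the RA-labelled pair. In the RA-labelled pair the list's median was 0.12, and the difference between the pairs was called higher for 16 and lower for 2 of the 25 genes, against 11.7% and 12.5% of all genes.

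RARB, a receptor gene that is itself a target of its own receptor, read 92.5, 108 and 118 on the d0 arrays with Dox and 1989, 1967 and 1957 on the Dox-labelled arrays. This was a rise of 16.3-fold (4.03 ± 0.19, adjusted p = 8.39e-08), and the RA-labelled arrays read 233, 189 and 239. Its promoter is shown because it holds a direct repeat with 5 bases between, the arrangement that retinoic acid receptors bind. The 300 bases span chr3:25428013-25428312 on the plus strand of GRCh38.p14 (RefSeq), from 250 before the start to 50 after it, and the match to GGTTCA and AGTTCA with 5 bases between, whose first base lies at -53 from the start, is in capitals.
RARB promoter: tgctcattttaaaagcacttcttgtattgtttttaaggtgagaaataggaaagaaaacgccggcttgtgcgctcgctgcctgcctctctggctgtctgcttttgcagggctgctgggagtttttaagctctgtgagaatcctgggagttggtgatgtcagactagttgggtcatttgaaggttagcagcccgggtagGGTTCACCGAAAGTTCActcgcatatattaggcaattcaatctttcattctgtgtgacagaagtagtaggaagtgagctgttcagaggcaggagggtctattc
Of 276 genes the naming rule took, 197 had a promoter in the RefSeq table, and RARB was the only one with a repeat of the forms searched. The search read both strands for 6 repeats with any 5 bases between the units: AGGTCA or AGTTCA repeated as such, AGTTCA paired with AGGTCA in either order, and AGTTCA paired with GGTTCA in either order. Other forms, such as GGTTCA repeated or paired with AGGTCA, were not searched. The form that RARB holds was among the 6 chosen, so its match is not a result of these data, and the counts hold for these 6 forms only. Over all tested genes with a promoter, 5 of 15384 held any of them (0.0325%). These were 2 of 3564 genes called higher (0.0561%), RARB and the collagen gene COL24A1, and 0 of 3768 called lower. The repeat bound by GCNF, AGGTCA followed at once by AGGTCA, was in 1 of 15384 promoters, that of LINC01101, which was not called. Its extended single site TCAAGGTCA was in 41 (0.267%), among named genes in MSI2 and SDHD. A match is a run of letters in this window and not a bound site.

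Most measured HOXB genes rose, and most HOXC and HOXD genes were not called. Of 10 measured HOXB genes 8 rose, with a median of 2.55. HOXB1, the first of its cluster, read 22.8, 25.4 and 34.2 on the d0 arrays with Dox and 1072, 1009 and 786 on the Dox-labelled arrays (4.48 ± 0.20, adjusted p = 4.53e-08). HOXB2 read 107, 86.1 and 122 on the d0 arrays with Dox and 2559, 2911 and 2513 on the Dox-labelled arrays (4.48 ± 0.15) and HOXB3 39.4, 53.2 and 35.1 on the d0 arrays with Dox and 1969.7, 1986 and 1534 on the Dox-labelled arrays (4.98 ± 0.31). HOXB4 rose from 24.98 ± 9.55 to 414 ± 44.4. The values of HOXB5, HOXB6, HOXB7 and HOXB9, called as well, were 2.62, 2.47, 1.69 and 1.24, and HOXB8 (0.57) and HOXB13 (-0.089) were not called. HOXA2, the one HOXA gene with a probe set of its own here, rose from 4.82 ± 4.61 to 525 ± 51.3 (4.72 ± 0.22), which depends on the constant added. In HOXC 2 of 9 genes rose, HOXC4 (3.09) and HOXC5 (2.24), and in HOXD 1 of 8, HOXD1 (1.70). The sizes of HOXC5 and HOXD1 also depend on the constant. The other HOXC and HOXD genes, HOXC6 (0.90) and HOXD4 (0.88) among them, were not called. In the RA-labelled pair the values were 1.00 for HOXB1, 1.83 for HOXB2, 2.52 for HOXB3, -0.36 for HOXB4 and 0.20 for HOXA2. The difference between the pairs was called for each of these 5, at 3.47, 2.65, 2.46, 3.77 and 4.52.

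**Figure D3:**
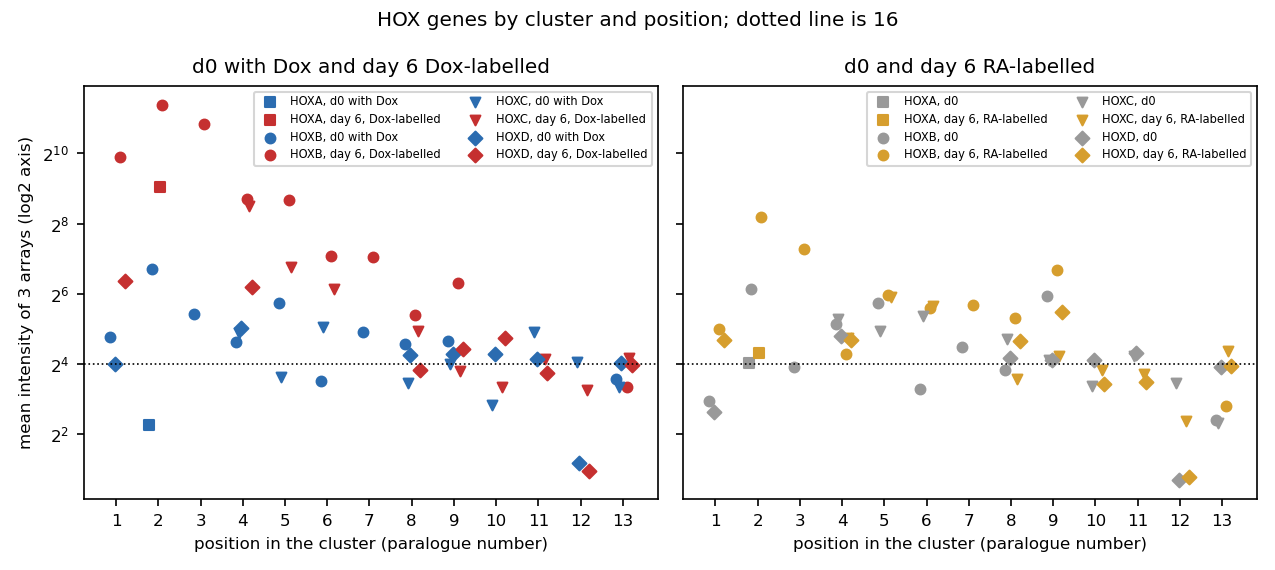
Mean intensity of 3 arrays (log2 axis) for each measured HOX gene against its position in the cluster, with the d0 with Dox and Dox-labelled groups on the left and the d0 and RA-labelled groups on the right; marker shapes are clusters. On the left, positions 1 to 5 of HOXB and HOXA2, HOXC4 and HOXC5 stand above their d0 values, and positions 10 to 13 are dim in all groups.

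Among homeobox cofactors of HOX proteins and their relatives, 7 of 15 rose and 4 fell. IRX3, an Iroquois factor of the trunk, rose from 1016 ± 413 to 4842 ± 587 (2.30 ± 0.24) and its neighbour IRX5 by 1.75. IRX1 and IRX2, of another Iroquois cluster, fell by 1.77 and 2.66. The 4 falls became 2 without replicate 1 or 2 of d0 with Dox and at most 3 without any other of the 6 arrays. Of 33 nuclear receptors, 11 rose and 5 fell, and these counts take in NR6A1, NR5A2 and RARB, given above. PPARG, the receptor that drives fat cell formation, rose from 9.32 ± 12.2 to 429 ± 90.1 (4.21 ± 0.34). NR2F1 (COUP-TFI), an orphan receptor of mesoderm and nervous system, read 138, 159 and 122.8 on the d0 arrays with Dox and 2153, 1585 and 1587 on the Dox-labelled arrays (3.51 ± 0.17, adjusted p = 8.72e-08). VDR, the vitamin D receptor, rose by 3.19. CYP24A1, the vitamin D degrading enzyme, read 26.4, 37.1 and 9.93 on the d0 arrays with Dox and 886, 764 and 959 on the Dox-labelled arrays (4.51 ± 0.28), while its RA-labelled arrays read 22.8, 13.9 and 4.63. THRB, a thyroid hormone receptor, fell by 1.31 and NR1H3, a sterol receptor, by 0.74.

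Mesenchymal genes rose. Of 29 measured, 24 rose and 1 fell, with a median of 1.82. POSTN, a matrix protein of fibroblasts and valves, read 245, 237 and 264 on the d0 arrays with Dox and 10664, 10386 and 11485 on the Dox-labelled arrays (5.36 ± 0.13, adjusted p = 1.16e-09). SNAI2, a repressor of epithelial genes, read 134, 154 and 116 on the d0 arrays with Dox and 2389, 2234 and 2474 on the Dox-labelled arrays (3.99 ± 0.11), and FOXC2, a forkhead factor of mesenchyme, rose by 3.65. THY1, a surface glycoprotein present on stem cells and fibroblasts, was the member that fell, from 3972 ± 169 to 1171 ± 59.1 (-1.75 ± 0.070). Of the mesenchyme markers, PDGFRA rose from 325 ± 38.7 to 3604 ± 330.3 and DCN from 71.8 ± 7.35 to 226 ± 79.2. All 8 measured fibroblast and mesenchyme markers rose, and their summed intensity went from 30061 to 30775 at d0 with Dox to 98175 to 101865 on Dox-labelled arrays.

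Collagens and enzymes that shape the matrix followed the same direction. Of 26 collagen genes 16 rose and 4 fell. COL3A1, the fibrillar collagen of soft tissue, read 1267, 1076 and 912 on the d0 arrays with Dox and 11074, 12353 and 9072 on the Dox-labelled arrays (3.30 ± 0.20, adjusted p = 5.06e-07), and COL5A1, COL11A1 and COL12A1 rose by 3.13, 2.86 and 2.16. COL9A3 fell by 1.15, COL21A1 by 0.91 and COL26A1 by 0.79. Of 32 matrix remodelling genes 23 rose and 4 fell. TIMP3, an inhibitor of metalloproteinases, rose by 3.47 and the collagen crosslinking enzyme LOXL2 by 2.57. HAPLN1, which links hyaluronan to proteoglycans, read 418, 395 and 317 on the d0 arrays with Dox and 3375, 3467 and 3222 on the Dox-labelled arrays (3.11 ± 0.16), with -0.37 in the RA-labelled pair and a difference of 3.48 ± 0.23 (adjusted p = 6.77e-06). TIMP4 and MMP15 fell by 1.78 and 1.56. Of 29 integrins and laminins 16 rose and 5 fell. The integrin subunits ITGA4, ITGA1 and ITGA9 rose by 4.58, 3.92 and 3.49. ITGA6, the laminin receptor subunit of stem cells, fell from 5635 ± 705 to 1134 ± 160.1 (-2.30 ± 0.18), ITGB5, a vitronectin receptor subunit, by 1.58 and the laminin chain LAMC3 by 1.80.

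**Figure D4:**
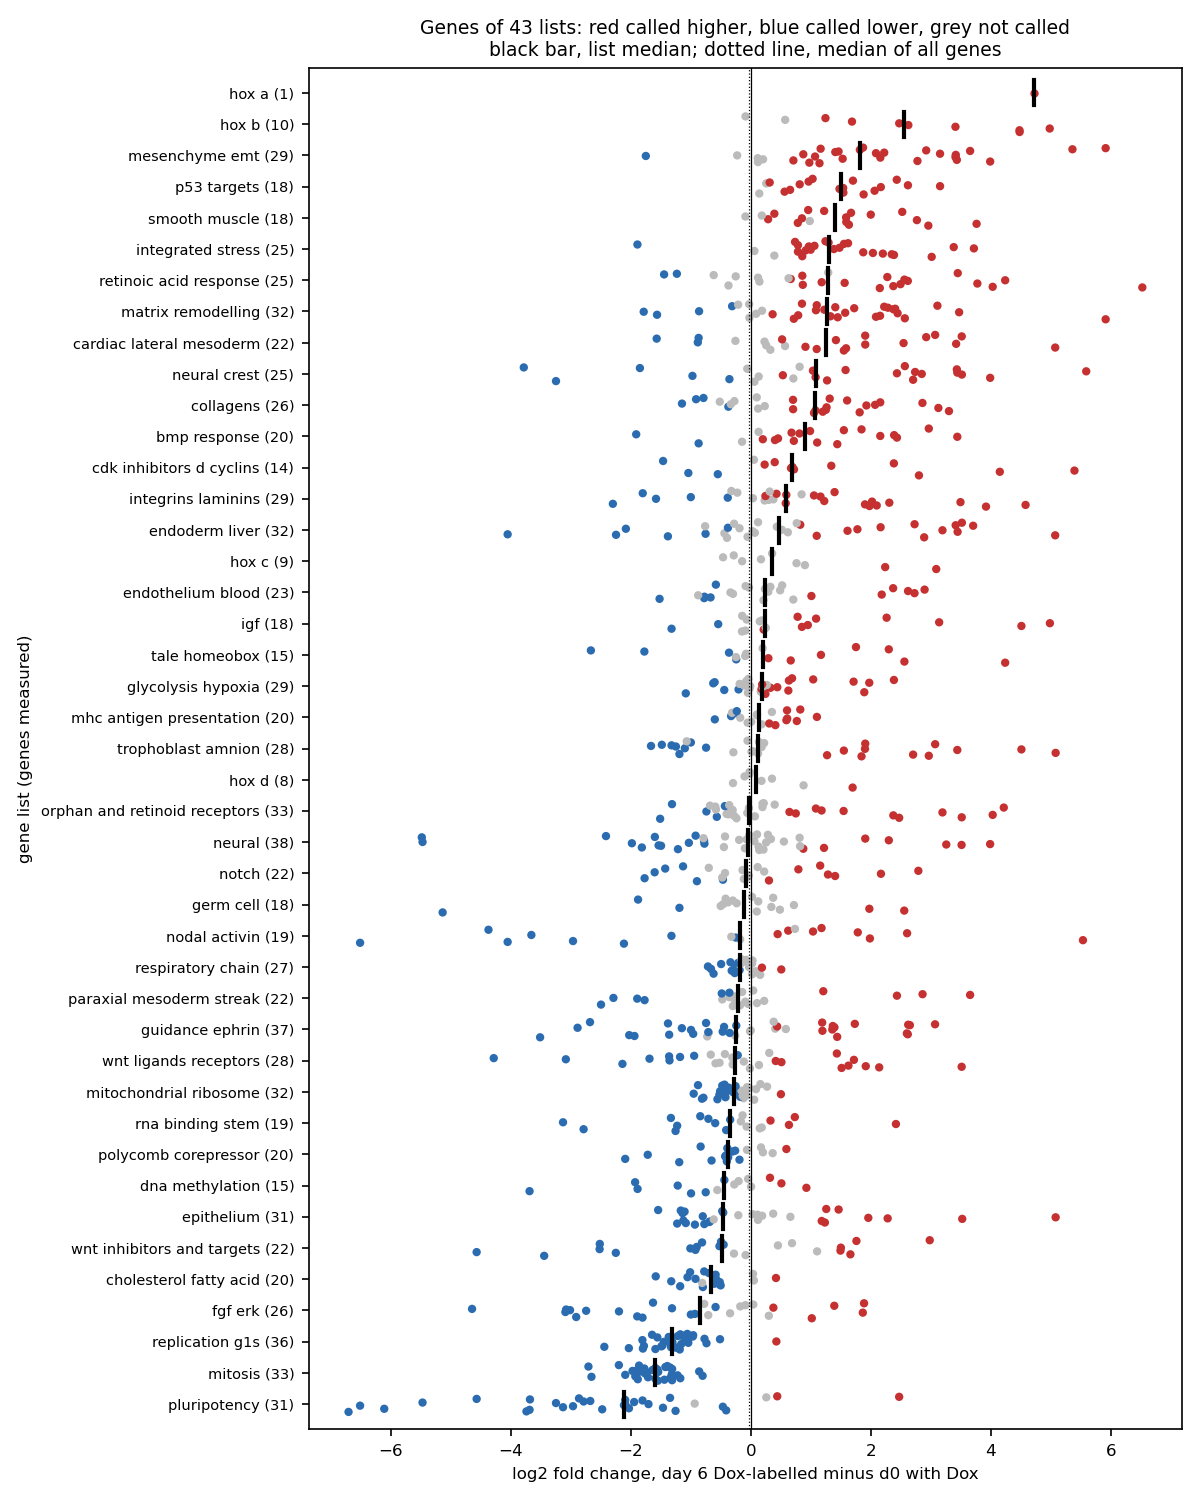
Log2 fold change from d0 with Dox to Dox-labelled day 6 for each measured gene of 43 lists, ordered by list median; red called higher, blue called lower, grey not called, black bar the list median, dotted line the median of all genes. The mitosis and replication lists lie almost wholly to the left, and the mesenchyme, smooth muscle, p53 and stress lists mostly to the right.

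Epithelial genes did not move in 1 direction. Of 31 measured, 8 rose and 15 fell. The 4 keratins of the list rose. KRT7 read 156, 135 and 111 on the d0 arrays with Dox and 5097, 5199.8 and 4775 on the Dox-labelled arrays (5.08 ± 0.22, adjusted p = 4.58e-08), KRT8 rose by 3.52, KRT18 by 2.28 and KRT19 by 1.96. KRT8 and KRT18 have many pseudogenes, whose share in these signals is uncertain. The other rises were the claudins CLDN4 (1.23) and CLDN10 (1.18) and the desmosome proteins PKP2 (1.46) and DSP (1.26). Among the falls, the angulin LSR fell by 1.54, the epithelial splicing regulator ESRP1 by 1.23, P-cadherin (CDH3) by 1.17 and the protease inhibitor SPINT1 by 1.14. E-cadherin (CDH1) read 10703, 10529 and 11365 on the d0 arrays with Dox and 5839, 6129 and 5137 on the Dox-labelled arrays, a fall of 0.93 on the log2 scale. The RA-labelled arrays read lower, at 1534, 1395 and 1365. ESRP1 fell by 4.43 in the RA-labelled pair, and the difference was 3.21 ± 0.28 (adjusted p = 4.22e-05). Over the list, the difference between the pairs was called higher for 18 and lower for 1 of 31 genes.

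In the BMP pathway 16 of 20 genes rose and 2 fell. The targets MSX2 and MSX1, homeobox factors of limb, heart and neural crest, rose by 3.44 and 2.43. GATA3 read 655, 683 and 706 on the d0 arrays with Dox and 5358, 5337 and 5589 on the Dox-labelled arrays (2.97 ± 0.064, adjusted p = 6.39e-10). BAMBI, a decoy receptor, rose from 2380.0 ± 25.05 to 12527 ± 188 (2.39 ± 0.083). The ligand BMP4 fell from 997 ± 111 to 537 ± 23.9 (-0.87 ± 0.12, adjusted p = 0.000185). GREM1, an antagonist of BMP ligands, read 2817, 2091 and 2450.3 on the d0 arrays with Dox and 678, 502 and 755 on the Dox-labelled arrays (-1.91 ± 0.15). It went the other way in the RA-labelled pair, from 1783 ± 145 at d0 to 11168 ± 256, and the difference between the pairs was -4.55 ± 0.21 (adjusted p = 7.31e-07).

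WNT genes changed in both directions. Of 22 secreted inhibitors and feedback targets 5 rose and 12 fell, and the falls were 8 to 11 when an array was left out. SFRP2, a secreted inhibitor abundant in stem cells, read 8259.8, 8297 and 7972 on the d0 arrays with Dox and 325, 349 and 315 on the Dox-labelled arrays (-4.57 ± 0.072, adjusted p = 2.08e-10). DKK1, a blocker of the LRP co-receptors, read 2255, 2133 and 2104 on the d0 arrays with Dox and 164, 195 and 196 on the Dox-labelled arrays (-3.44 ± 0.10). DKK1 changed by 0.016 in the RA-labelled pair, and the difference was -3.46 ± 0.14 (adjusted p = 4.01e-07). The target SP5 fell by 2.52 to under 16 and the inhibitor WIF1 by 2.52. DACT1, an intracellular modulator, rose by 2.98 and DKK3 by 1.66. Of 28 ligands, receptors and R-spondins 9 rose and 9 fell, and the rises were 7 or 8 when an array was left out. WNT4 rose from 16.97 ± 11.5 to 344 ± 17.6 (3.51 ± 0.25), WNT2B by 2.14 and WNT5A by 1.91. The receptors went both ways, with FZD4 up by 1.72 and FZD10, FZD5 and FZD7 down by 4.28, 3.08 and 1.69.

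FGF genes were mainly lower, with 14 of 26 falling and 5 rising. FGFR3 read 7969, 7965 and 8421 on the d0 arrays with Dox and 1051, 1073 and 866 on the Dox-labelled arrays (-3.01 ± 0.084, adjusted p = 2.22e-09), and FGFR4 fell by 3.08. FGFBP3, a carrier that releases FGF from matrix, fell from 6372 ± 92.3 to 242 ± 44.6 (-4.64 ± 0.11). The ligands FGF19 and FGF8 fell to under 16, from 162 ± 13.2 and 72.6 ± 23.2, so their log2 fold changes of -3.09 and -1.89 depend on the constant. FGF18, a ligand of cartilage and bone, rose by 1.87, ETV5, a transcription factor that FGF signalling switches on, by 1.89 and the feedback inhibitor SPRED2 by 1.39. Of 22 Notch pathway genes 7 rose and 6 fell. The repressor HEY1 rose from 445 ± 34.7 to 3171 ± 81.2 (2.79 ± 0.086), HES4 by 2.17, HES1 by 1.29 and the ligand JAG1 by 1.40. The ligand DLL1 fell by 1.77, HES6 by 1.60 and the glycosyltransferase LFNG by 1.43. HEY1 changed by -0.087 in the RA-labelled pair, with a difference of 2.88 ± 0.12 (adjusted p = 4.43e-07).

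Heart and lateral mesoderm factors were mostly higher, 14 of 22 rising and 3 falling. GATA6, a zinc finger factor of heart and endoderm, read 225, 239.9 and 206 on the d0 arrays with Dox and 8127, 8143 and 7825 on the Dox-labelled arrays (5.07 ± 0.099, adjusted p = 4.63e-10). MEF2C rose by 3.42 and TBX3, a T-box factor of the conduction system, by 3.07. TNNI3, the adult cardiac troponin I, fell by 1.57. The heart muscle markers MYH6 (27.0 and 30.9) and NKX2-5 (10.2 and 15.2) stayed dim on both groups of arrays and were not called. Of 18 smooth muscle genes 15 rose and 0 fell. Calponin (CNN1) read 345, 313 and 282 on the d0 arrays with Dox and 4233, 4514 and 4571 on the Dox-labelled arrays (3.76 ± 0.15, adjusted p = 2.14e-08), smooth muscle actin (ACTA2) rose by 2.96, LMOD1 by 2.77 and TGFB1I1 by 2.52.

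Primitive streak and paraxial mesoderm genes were mostly dim, and 4 of 22 rose and 6 fell. EOMES, a T-box factor of the streak, fell from 257 ± 39.6 to 32.6 ± 8.39 (-2.50 ± 0.21) and the apelin receptor APLNR by 2.29. MEOX1, a homeobox factor of somites, rose from 14.2 ± 6.67 to 204 ± 53.2 and LHX1 by 2.43. Of 32 endoderm and liver genes 13 rose and 6 fell. AFP, the fetal liver and yolk sac protein, read 116, 106 and 105 on the d0 arrays with Dox and 1605, 1879 and 804 on the Dox-labelled arrays (3.45 ± 0.41, adjusted p = 5.92e-05), and the third Dox-labelled array was the lowest of its group. FGB, a fibrinogen chain, rose by 3.70 and SOX9 by 3.52. CXCR4, a chemokine receptor of definitive endoderm, fell by 2.25, APOC1 by 2.08 and FOXA3 by 1.38. The endoderm markers SOX17 (92.8 and 66.8), FOXA2 (68.6 and 68.0) and ALB (22.7 and 25.3) were not called. Summed over the 6 hepatic and yolk sac markers, intensity ran from 614 to 756 at d0 with Dox and from 2007 to 3814 on Dox-labelled arrays, and 3 of the 6 rose.

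Trophoblast and amnion genes split, with 11 of 28 rising and 8 falling. IGFBP3 read 1126, 1247 and 1093 on the d0 arrays with Dox and 25373, 27067 and 27419.9 on the Dox-labelled arrays (4.51 ± 0.17, adjusted p = 1.37e-08). The pregnancy-specific glycoproteins PSG1 and PSG4, near-identical copies whose signals may be shared, fell by 1.25 and 1.32, and TFAP2C by 1.19. The defining trophoblast markers CGA, GCM1 and ELF5 were under 16 in both groups and none of the 4 measured was called. Of 23 endothelial and blood genes 6 rose and 5 fell. LMO2, an adaptor of early blood and vessel cells, rose by 2.90, ESAM by 2.73, FLI1 by 2.62 and the embryonic globin HBE1 by 2.37. The sizes of ESAM and HBE1 depend on the constant added. KDR, the main VEGF receptor, fell by 1.52, FLT1 by 0.78 and TEK by 0.77. The TEK mean was 355 on untreated d0 arrays, 1165 at d0 with Dox and 671 on Dox-labelled arrays, so it stayed above untreated cells. The count of falls is 3 without the third Dox-labelled array. Of 18 germ cell genes 2 rose, NANOS1 (2.56) and PRDM1 (1.98), and 3 fell, DAZL, KIT (-1.88) and TFAP2C.

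Neural genes did not move together, with 7 of 38 rising and 13 falling. The neurofilament NEFM read 316, 255 and 297 on the d0 arrays with Dox and 4784, 4759.9 and 4891 on the Dox-labelled arrays (3.99 ± 0.12, adjusted p = 3.43e-09), NEFL rose by 3.26 and STMN2, a microtubule regulator of neurons, by 3.51. NEFM changed by -0.28 in the RA-labelled pair, and the difference was 4.27 ± 0.17 (adjusted p = 2.94e-07). The forebrain genes LHX2 and FABP7 fell by 1.98 and 2.41. The neural progenitor marker PAX6 (82.2 and 93.5) was dim and not called. Of 25 neural crest genes 15 rose and 5 fell. DLX2, a homeobox factor of branchial arches and forebrain, read 7.91, 23.4 and 23.5 on the d0 arrays with Dox and 1531, 1591 and 1651 on the Dox-labelled arrays (5.59 ± 0.28, adjusted p = 1.13e-07). EDNRB, an endothelin receptor, fell from 8953 ± 277 to 636 ± 25.8 (-3.78 ± 0.10), FOXD3 by 3.25 to under 16 and ERBB3 by 1.85. The crest marker SOX10 read 65.6 and 68.4 and was not called.

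Genes of guidance and cell contact changed both ways, with 13 of 37 rising and 16 falling. The neuropilins NRP2 and NRP1, co-receptors of semaphorins and VEGF, rose by 3.07 and 2.62, and ROBO2, a SLIT receptor, rose from 219 ± 20.8 to 1455 ± 63.8 (2.65 ± 0.19). ROBO2 changed by -1.22 in the RA-labelled pair (adjusted p = 0.000368), with a difference of 3.87 ± 0.28 (adjusted p = 1.04e-05). EPHA1, an ephrin receptor of epithelia, read 2349, 2421 and 2335 on the d0 arrays with Dox and 226, 188 and 169 on the Dox-labelled arrays (-3.51 ± 0.13, adjusted p = 1.33e-08), SEMA6A fell by 2.89 and the netrin receptor UNC5D by 2.68. Of 18 genes of insulin-like growth factor signalling 9 rose and 2 fell. The binding proteins IGFBP6 and IGFBP7 rose by 4.98 and 3.14. The difference of IGFBP3 between the pairs was 4.27 ± 0.23 (adjusted p = 1.93e-06), since it changed by 0.24 in the RA-labelled pair. The insulin receptor INSR fell by 1.32 and IGFBP5 by 0.54.

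Genes of cell division fell. Of 36 replication and G1/S genes 35 fell, with a median of -1.31, and of 33 mitosis genes all 33 fell, with a median of -1.59. MCM10, which starts replication forks, read 1415, 1658 and 1407 on the d0 arrays with Dox and 304, 335 and 174 on the Dox-labelled arrays (-2.44 ± 0.21, adjusted p = 5.47e-06), and the helicase subunits MCM5 and MCM4 fell by 2.03 and 1.80. The single gene called higher was RFC5, a clamp loader subunit, at 0.43. Another of its probe sets was called lower, and its value turned to -0.55 with the mean of its probe sets. MKI67, the proliferation marker, read 1336, 1313 and 1143 on the d0 arrays with Dox and 131, 193 and 229 on the Dox-labelled arrays (-2.71 ± 0.18, adjusted p = 9.68e-07). The spindle checkpoint kinases BUB1 and TTK fell by 2.66 and 2.09, and HMMR, a spindle protein, by 2.20. In the RA-labelled pair the medians were -2.02 and -2.52. The difference between the pairs was called higher, a smaller fall with the Dox label, for 22 of 36 and 27 of 33 genes and lower for 0 of either.

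Of 14 genes that brake or start G1, namely inhibitors of cyclin-dependent kinases, D cyclins, their kinases and pocket proteins, 10 rose and 3 fell. Of the 6 inhibitors measured, 4 rose and 2 fell. CDKN2B (p15) read 159, 158 and 121 on the d0 arrays with Dox and 6359, 6462 and 7467 on the Dox-labelled arrays (5.39 ± 0.11, adjusted p = 4.8e-10), CDKN2A, which encodes p16 and p14ARF, rose from 93.1 ± 35.8 to 1849 ± 164 (4.15 ± 0.23) CDKN1A (p21) by 2.80 and CDKN2D (p19) by 0.72. The kinase CDK6 rose by 2.38. CDKN1C (p57) fell by 1.04, CDKN1B (p27) by 0.55 and the pocket protein RBL1 by 1.46. Of 18 other p53 targets 16 rose and 0 fell, with a median of 1.51. GDF15, a stress cytokine, read 759, 836 and 683 on the d0 arrays with Dox and 6578, 6684 and 7329.8 on the Dox-labelled arrays (3.15 ± 0.085, adjusted p = 1.97e-09). GADD45A rose by 2.62, SPATA18 by 2.43 and ZMAT3 by 2.17.

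Of 25 genes of the integrated stress response, which answers amino acid shortage and unfolded proteins through ATF4, 22 rose and 1 fell, with a median of 1.30. ALDH1L2, a mitochondrial folate enzyme, read 47.5, 49.0 and 53.05 on the d0 arrays with Dox and 854, 851 and 845 on the Dox-labelled arrays (3.72 ± 0.12, adjusted p = 6.29e-09). STC2, a secreted glycoprotein, rose by 3.38, and the factors ATF3 and DDIT3 by 3.01 and 2.39. SLC7A3, an arginine transporter of stem cells, fell by 1.89. Of 20 cholesterol and fatty acid genes 16 fell and 1 rose. INSIG1, a sterol sensor, fell by 1.58, and the synthesis enzymes DHCR7 and SQLE by 1.33 and 1.18. Of 29 glycolysis and hypoxia genes 14 rose and 5 fell, a count of falls that ran from 2 to 5 when arrays were left out. NDRG1, induced by low oxygen, rose by 2.38, PFKFB3 by 1.97 and VEGFA by 1.71, and hexokinase 2 (HK2) fell by 1.08.

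Mitochondrial genes showed small changes. Of 32 mitochondrial ribosome proteins 19 fell and 1 rose, with a median of -0.28. The 19 became 15 to 17 when an array was left out. MRPL32 fell from 7814 ± 219 to 4033 ± 187 (-0.95 ± 0.073, adjusted p = 2.42e-06). Of 27 respiratory chain subunits 13 fell and 2 rose, with CYC1 of complex III at -0.71. The 13 became 8 or 9 when any of the 6 arrays was left out, and the 2 rises, UQCRC2 and SDHC, had other probe sets called lower. Of 20 genes of antigen presentation by MHC class I 8 rose and 4 fell. B2M, the light chain of class I molecules, rose from 14560.5 ± 450.0 to 24778 ± 531 (0.77 ± 0.058), and the falls were 1 to 3 genes when an array was left out.

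Chromatin genes fell more often than they rose. Of 15 genes of DNA methylation 7 fell, 3 rose and 5 were not called, with TET1, which oxidises methylcytosine, at -1.89 and UHRF1 at -1.22. Of 20 polycomb and corepressor genes 15 fell and 1 rose, and the falls were 13 or 14 when an array was left out. JARID2, a polycomb cofactor of stem cells, read 7016, 7871 and 9329 on the d0 arrays with Dox and 1870.3, 1835 and 1897 on the Dox-labelled arrays (-2.09 ± 0.13, adjusted p = 4.51e-07), CBX2 fell by 1.72 and EZH2, the methyltransferase, by 1.19. Among 19 RNA-binding proteins of stem cells 10 fell and 4 rose. TRIM71, a let-7 target that promotes division, fell from 12773 ± 97.9 to 1839 ± 58.4 (-2.79 ± 0.057), and PTBP2 by 1.33. RBM24, a splicing regulator of muscle, rose by 2.42.

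Some marker sums moved beside these changes and others did not separate the groups. The 10 measured stem cell markers summed to 130046 to 134609 at d0 with Dox and to 39783 to 40940 on Dox-labelled arrays, and all 10 fell. The 4 heart and smooth muscle markers summed to 1497 to 1561 and to 11174 to 11645, and of these ACTA2 rose. The 8 neural markers summed to 9951 to 10376 and to 18567 to 18791, of which 2 rose and 2 fell, and STMN2 carried the increase. Germ cell markers went from 936 to 1077 to 35.6 to 61.6, through DAZL, with DDX4 under 16 in both groups. On untreated d0 arrays the germ cell markers summed to 300 to 432. For other sets the sums overlapped between d0 with Dox and Dox-labelled arrays. Neural crest markers summed to 562 to 636 and to 607 to 780. Endothelium and blood markers summed to 1213 to 1634 and to 1068 to 1246. Trophoblast markers summed to 58.6 to 89.7 and to 14.5 to 67.3. The shares of cell types behind these sums were not tested.

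The Dox-labelled pair was finally set beside the RA-labelled pair over all genes. In the RA-labelled pair 9993 genes were called, 7193 were called in both pairs, and 6757 of these had the same direction, which is 74.1% of the calls of the Dox-labelled pair and 67.6% of those of the RA-labelled pair. Opposite directions were called for 436 genes. The difference between the pairs was itself called for 4794 genes (24.2%), 2313 higher (11.7%) and 2481 lower (12.5%). The genes with the largest positive differences under the naming rule included GFRA1, a receptor for GDNF, at 5.24, CORIN at 5.15 and CNR1, a cannabinoid receptor, at 4.88. CNR1 read 59.8, 64.02 and 47.7 on the d0 arrays with Dox and 2879, 2435 and 2652 on the Dox-labelled arrays, and 72.7, 71.8 and 52.6 and 79.2, 99.7 and 76.9 on the d0 and RA-labelled arrays. The most negative was GALNT16, an enzyme that starts O-linked glycosylation, which read 2586, 2681 and 2815 on the d0 arrays with Dox and 386, 362 and 363 on the Dox-labelled arrays. Its d0 and RA-labelled arrays read 153, 164 and 127 and 8231, 9505 and 8713, so it fell by 2.81 in one pair and rose by 5.76 in the other (difference -8.57 ± 0.13, adjusted p = 7.11e-10). SLITRK5, a neuronal membrane protein, and LIX1, of limb and forebrain, showed the same pattern. SLITRK5 read 789, 785 and 823 on the d0 arrays with Dox and 41.9, 42.9 and 48.5 on the Dox-labelled arrays and LIX1 487, 531 and 472 on the d0 arrays with Dox and 32.0, 22.02 and 21.7 on the Dox-labelled arrays. Their RA-labelled means were 477 and 106, against 90.8 and 20.0 at d0. For GALNT16, SLITRK5 and LIX1 the d0 arrays with Dox already stood above untreated d0, and the Dox-labelled day 6 arrays read closer to the untreated level than to that of their own d0 arrays.

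**Figure D5:**
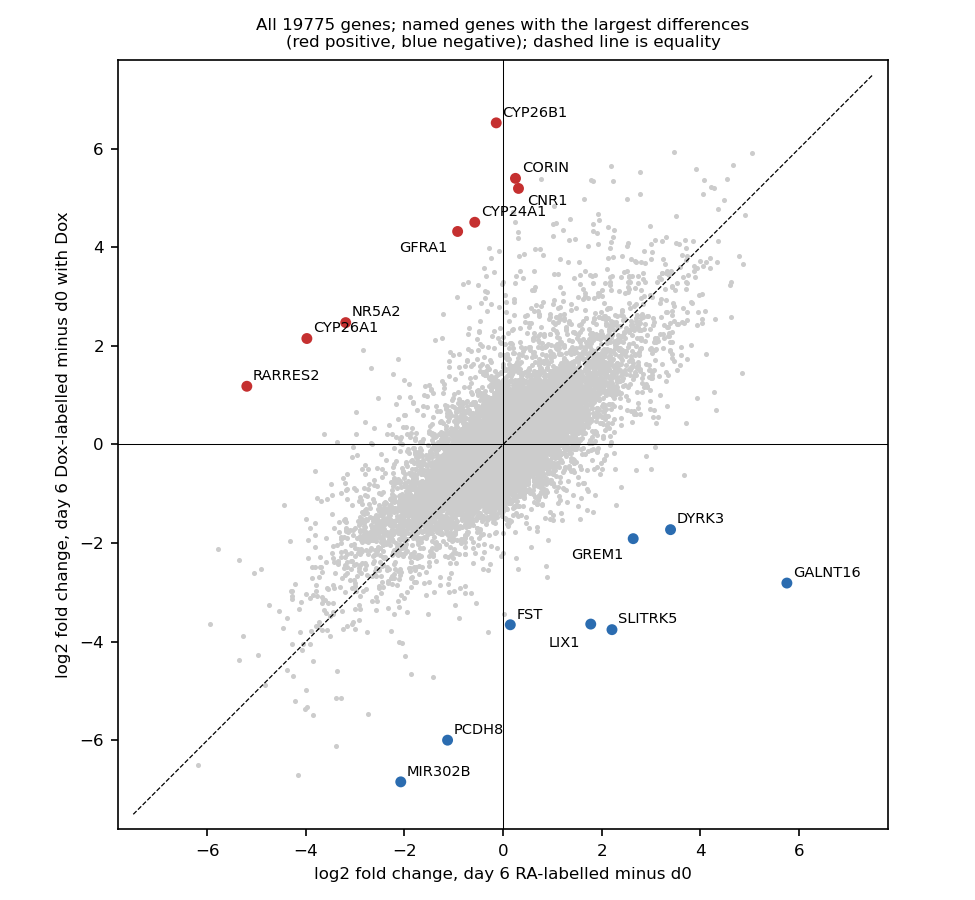
Log2 fold change from d0 with Dox to Dox-labelled day 6 (vertical) against that from d0 to RA-labelled day 6 (horizontal) for 19775 genes, with the 16 genes of the largest positive (red) and negative (blue) differences named and equality dashed. CYP26A1, NR5A2 and RARRES2 rise in one pair and fall in the other, and GALNT16, SLITRK5, LIX1, GREM1 and DYRK3 do the reverse.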

How the data were processed

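RNA of H9 cells was measured on 12 arrays in 4 groups of 3, taken with their replicate numbers from the sample titles. The authors deposited linear intensities of 54675 probe sets. Their background correction, probe summary and scaling are not given in the sources used here. With the lowest and highest 2% of probe sets left out, the mean deposited intensity was 500.06 on the arrays, as after scaling to a target. Of the probe sets, 41097 had a single gene symbol, 1801 had several and 11777 were not listed in the platform annotation used here. For 41043 of them the symbol was brought up to date by gene ID from a RefSeq table of GRCh38.p14. Where a gene had several such sets, the brightest over all arrays stood for it, which gave 19775 genes.

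Values were tested as log2(intensity + 16) with limma 3.58.1 (lmFit, eBayes) in R 4.3.3, with a mean per group over all 12 arrays, 8 residual degrees of freedom, Benjamini-Hochberg adjustment and a threshold of 0.05. The difference between the Dox-labelled and RA-labelled pairs was a contrast of the same fit. NR6A1 and POU5F1-family probe sets were adjusted over all probe sets. The 43 lists (1025 genes, 937 with a probe set of their own) were described by counts and medians without a test. Named genes were NR6A1, the 12 largest rises and falls, the 8 largest differences each way (called, arrays not overlapping, higher mean at or above the median gene), and up to 4 rises and 4 falls of each list. HOXB5 to HOXB9 and HOXB13, HOXC6, HOXD4, ALDH1A1, RDH10, CDH1, CLDN4, CLDN10, PKP2, DSP and CDKN2D stand outside that rule. So do the fixed markers and genes of the closing section. All were named after their values were seen. Members, lists and rules were chosen with earlier results of these data known. The procedure was tested on simulated data. Alternatives were quantile normalization, median centring, constants of 1 and 64, genes at or above the median mean, averaging the probe sets of each gene, testing every probe set, array weights, a robust trended variance, a fit of the 6 arrays by themselves, a block for replicate number, a 2-fold minimum and leaving out each array. Batches were not tested, since scan dates and scanner files were not analysed here. Promoters were searched as text in Python 3.11.15.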

Additional observations from a re-analysis of the deposited data

Results flagged for a closer look

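The day 6 effect differed between the Dox-labelled and the RA-labelled pair, by limma's test of the difference itself, for the 16 genes named for it, whose 12 arrays are those of the report. The positive differences on the log2 scale were 6.66 for CYP26B1, 6.38 for RARRES2, 6.13 for CYP26A1, 5.66 for NR5A2, 5.24 for GFRA1, 5.15 for CORIN, 5.08 for CYP24A1 and 4.88 for CNR1. The negative ones were -8.57 for GALNT16, -5.96 for SLITRK5, -5.42 for LIX1, -5.12 for DYRK3, -4.87 for PCDH8, -4.77 for MIR302B, -4.55 for GREM1 and -3.80 for FST. GFRA1 read 37.6 ± 17.8 at d0 with Dox and 1016 ± 94.4 on Dox-labelled arrays, against 50.004 ± 24.1 at d0 and 21.5 ± 23.0 on RA-labelled arrays. RARRES2 read 576 ± 59.4 and 1325 ± 109, against 1165 ± 162 and 16.1 ± 2.66. DYRK3, a kinase that dissolves stress granules, read 643 ± 59.0 and 185 ± 43.8, against 116 ± 25.1 and 1368 ± 229. A difference between pairs includes the effect of Dox at d0, since the 2 pairs start from different stem cell groups. These genes were picked for the size of the difference, so the sizes are descriptions.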

How the results depend on the processing

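The count of 9120 called genes ran from 8276 (mean of all probe sets of a gene) to 9534 (array weights) over the settings that tested all 19775 genes without a fold minimum. With only the 9888 genes at or above the median mean tested, 7181 were called. The share of higher calls ran from 44.4% (mean of all probe sets) to 48.6% (genes at or above the median mean). Requiring at least 2-fold left 3430 genes (1728 higher, 1702 lower) for the pair and 1605 (852 higher, 753 lower) for the difference between pairs, and using all probe sets called 19061 (8155 higher, 10906 lower). Leaving out 1 array at a time gave 8296 to 8370 genes (4004 to 4048 higher, 4264 to 4351 lower), and for the difference 4014 to 4567 (1926 to 2246 higher, 2088 to 2394 lower). The 7 NR6A1 probe sets were called lower under each alternative run. With the replicate number as a block the counts were 8987 (4316 higher, 4671 lower) and 4560 (2177 higher, 2383 lower). Same-numbered arrays of the 2 groups had deviations that correlated at 0.028, 0.013 and 0.023, each the best of its array but too low to show pairing. When the probe sets of a gene were averaged, ERAP1 turned to 0.30, MBD2 to 0.024, MSI2 to -0.015, RFC5 to -0.55, SOX6 to 0.24 and UQCRC2 to -0.042. Of 4349 recomputed values of the 276 named genes 4272 kept direction and call, 71 (24 genes) lost the call and those 6 reversed. List results moved more. Of 685 recomputed list medians 119, in 37 of 43 lists, moved by more than the SD between the Dox-labelled arrays. A constant of 1 moved 16 list medians, a constant of 64 moved 20 and averaged probe sets moved 19. Of 1370 recomputed list counts 64, in 32 of 86 counts, changed over 1.5-fold or to or from 0. A constant of 1 made the log2 fold changes of 11 named genes, dim in a group, over 1.5 times larger in size (the falls of FGF19 and FOXD3 among them). A constant of 64 made those of 24 over 1.5 times smaller in size. Among these were the rises of HOXA2, HOXC5, HOXD1, PPARG, LMOD1, MEOX1, LHX1, ESAM and HBE1. The median of all genes moved to -0.053 at most. Of 5778 called genes with other probe sets, 3317 had another called the same way and 323 (5.59%) another called the opposite way. The number of arrays and signal under 16, in 23.1% to 26.5% of probe sets, limit what dim genes can show.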

Other observations

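Families of genes named by their symbols were counted after the values had been seen. Their counts are to be read against all genes, of which 22.2% rose and 23.9% fell. Of their members, RAB25 and S100A4 also stand in lists above. Of 17 annexins, calcium-dependent membrane binding proteins, 14 rose and 0 fell, with a median log2 fold change of 1.45. ANXA1 read 1182, 1156 and 1106 at d0 with Dox and 13905, 16258 and 15214 on Dox-labelled arrays. Of 21 subunits of the V-ATPase, the proton pump of lysosomes, 15 rose and 2 fell (median 0.53), and of 71 RAB GTPases, which direct vesicles, 33 rose and 12 fell (median 0.34). Of 16 S100A calcium-binding proteins 7 rose and 0 fell (median 0.30). Nucleoporins, the building blocks of the nuclear pore, went the other way, with 17 of 26 lower and 0 higher (median -0.49). Of 502 genes with a ZNF symbol, mostly zinc finger repressors, 185 fell and 68 rose (median -0.22). Of 17 clustered protocadherins of the beta group 9 fell and 0 rose (median -0.44), and of 32 RNA polymerase subunits 15 fell and 4 rose (median -0.28). Of 58 cytosolic ribosomal proteins 10 fell and 2 rose (median -0.096), each a smaller share than among all genes.

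Further genes were chosen for their size after the values had been seen. JUNB, an AP-1 factor of the early response, read 32.7, 26.4 and 77.8 at d0 with Dox and 753, 695 and 768 on Dox-labelled arrays, and FOSL2 read 114, 125 and 79.7 and 1355, 1319 and 1299. BHLHE40, a repressor of the circadian and hypoxia responses, read 202, 144 and 129 and 4837, 4972 and 4350.3. TGFB2, a ligand of the transforming growth factor family, read 409.7, 450.0 and 429 and 7555, 7625 and 8244, and its target TGFBI 1447, 1498 and 1399 and 15224, 15488 and 15595. NTS, the neuropeptide neurotensin, read 10763, 10422 and 10681 and 383, 367 and 429. Its untreated d0 mean was 5368, under the 10622 at d0 with Dox. CXCL12, a chemokine, read 2478, 3123 and 2557 and 134, 151 and 162, and the interferon-induced membrane protein IFITM1 16998, 15815 and 18711 and 1418, 1402 and 1400.3. The noncoding transcripts SOX2-OT, LINC00458 and RMST read 1137, 1275 and 1312, 1200.0, 1338 and 1117 and 929.7, 847 and 905 at d0 with Dox and 43.5, 32.4 and 21.6, 78.6, 87.0 and 56.6 and 82.6, 35.1 and 60.3 on Dox-labelled arrays. Their untreated d0 means were 219, 852 and 1460, against 1242, 1218 and 894 at d0 with Dox. SOX2-OT fell by 4.72 in the Dox-labelled pair and by 1.42 in the RA-labelled pair (difference -3.29 ± 0.24, limma, adjusted p = 1.23e-05).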
